A study of Mus musculus with 18 samples.

Results

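The collagen genes of the dorsal root ganglion (DRG) are the genes whose symbol on the array platform is Col, digits, a and digits, such as *Col1a1*. There were 42 of them among the 18193 genes measured. Each was read from its brightest probe set among those named for that gene alone. The 42 genes have 82 such probe sets, with 15 genes read by 1 probe set and 27 by several.

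The arrays, of the Affymetrix mouse genome type, were hybridised with RNA of DRG from every spinal level. They cover 3 mouse lines, with 3 knockout (KO) and 3 littermate arrays per line, 18 arrays in all. Nav1.7 KO mice carry a floxed *Scn9a* gene that is deleted in sensory neurons by Cre under the Advillin promoter, whereas the Nav1.8 line lacks *Scn10a* and the Nav1.9 line *Scn11a* in all cells. The littermates are labelled wild type, and whether those of the Nav1.7 line carried Cre or floxed alleles is not given in the sources used here. The mice were of both sexes and 8 to 12 weeks old, their strain is not given in the sources used here, and whether 1 array held 1 animal is not stated, so p-values measure the spread between these arrays only.

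Collagens are triple-helical proteins of the extracellular matrix. Fibrillar collagens make the fibres of the epineurium, of the ganglion capsule and of the dura. Collagen IV makes the network of the basement membranes that surround Schwann cells, satellite glia and blood vessels, and collagens VI and VIII, the fibril-associated collagens and the multiplexins link these structures to each other and to cells. In a peripheral ganglion most collagen is known to come from fibroblasts, meningeal and perineurial cells, vessel walls and Schwann cells rather than from neurons. In bulk tissue, fewer cells of a type and less RNA per cell cannot be told apart.

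The members fall into 11 fibrillar collagens, 6 collagen IV chains, 6 microfibrillar and anchoring chains of collagens VI and VII, 3 network collagens of types VIII and X, 9 fibril-associated collagens, 2 multiplexins, 4 membrane-spanning collagens and *Col26a1*. In brightness, 25 were above and 17 below the 40th percentile of all genes tested. The files hold no detection calls, so whether a dim member was above background is not known. All values are log2 intensities and are compared only within a probe set. The mean of the 13 fibroblast markers measured lay between 7.96 and 8.57 over the 18 arrays, and that of 9 meningeal markers between 7.32 and 8.34. No cells were sorted, so which cells the collagen RNA came from was not measured.

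Before the members were compared, the labels and the arrays were checked. *Scn10a* was lower in Nav1.8 KO arrays (7.84) than in littermate arrays (9.41), and *Scn11a* was lower in Nav1.9 KO arrays (11.00) than in littermate arrays (12.86). Nav1.9 littermates 1 and 3 had *Scn11a* at 12.61 and 12.69, between the KO arrays and the range of 13.19 to 13.36 in the littermates of the other lines, while Nav1.9 littermate 2 was at 13.27 (Nav1.7 minus Nav1.9 littermates 0.46, adjusted p = 0.0186, limma). Results on Nav1.9 littermates therefore rest in part on arrays whose target level is lower than in other littermates. Some values below leave out 1 array at a time, and none leaves out Nav1.9 littermates 1 and 3 together. *Scn9a* was 12.25 in Nav1.7 KO arrays and 12.31 in littermate arrays (adjusted p = 0.642, limma), and whether its probe set lies in the deleted part is not given in the sources used here, so it checks nothing. Array medians lay between 6.33 and 6.36. *Xist*, the RNA of the inactive X chromosome, split the arrays into 7 high arrays (11.97 or above) and 11 low arrays (5.65 or below). The Y-linked *Eif2s3y* ran the other way, at 4.86 or below in the high and 9.20 or above in the low arrays. The high arrays thus read as female and the low arrays as male. The high arrays were Nav1.7 KO 1 and 3, all 3 Nav1.7 littermates, and Nav1.8 KO 2 and 3. All 3 Nav1.8 littermates and all Nav1.9 arrays were low, so the *Xist* class differs between KO and littermate arrays in the Nav1.7 and Nav1.8 lines and between the littermates of the lines.

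The first question was whether the loss of a channel changed collagen expression. Few differences were detected with 3 arrays per group, and a p that misses the threshold does not show equal levels. At an adjusted p under 0.05 over all 18193 genes (limma), 0 of the 42 collagens passed in Nav1.7 KO DRG, where 4.33% of all genes passed, 0 in Nav1.8 KO DRG, where 0.0165% passed, and 1 in Nav1.9 KO DRG, where 0.473% passed. At an unadjusted p under 0.05 the counts were 2 in Nav1.7 KO (16.3% of all genes), 2 for the Nav1.8 line (8.09%) and 4 for the Nav1.9 line (12.1%). For its arrays the paper names an analysis of variance, at a p under 0.01, in the Nav1.7 figure only. Applied here to each line, it gave 0 collagens at that unadjusted threshold for Nav1.7, 0 for Nav1.8 and 1 for Nav1.9. After adjustment it gave 0 in each. The shares of all genes that passed by analysis of variance were not counted, so these counts cannot be set against all genes. The median log2 fold change over the 42 genes was 0.05 for Nav1.7, 0.02 for Nav1.8 and -0.02 for Nav1.9, beside 0.01, -0.01 and 0.00 over all genes. In Nav1.7 KO DRG 32 collagens had a positive and 10 a negative log2 fold change, against 53.4% positive among all genes.

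**Figure D1:**
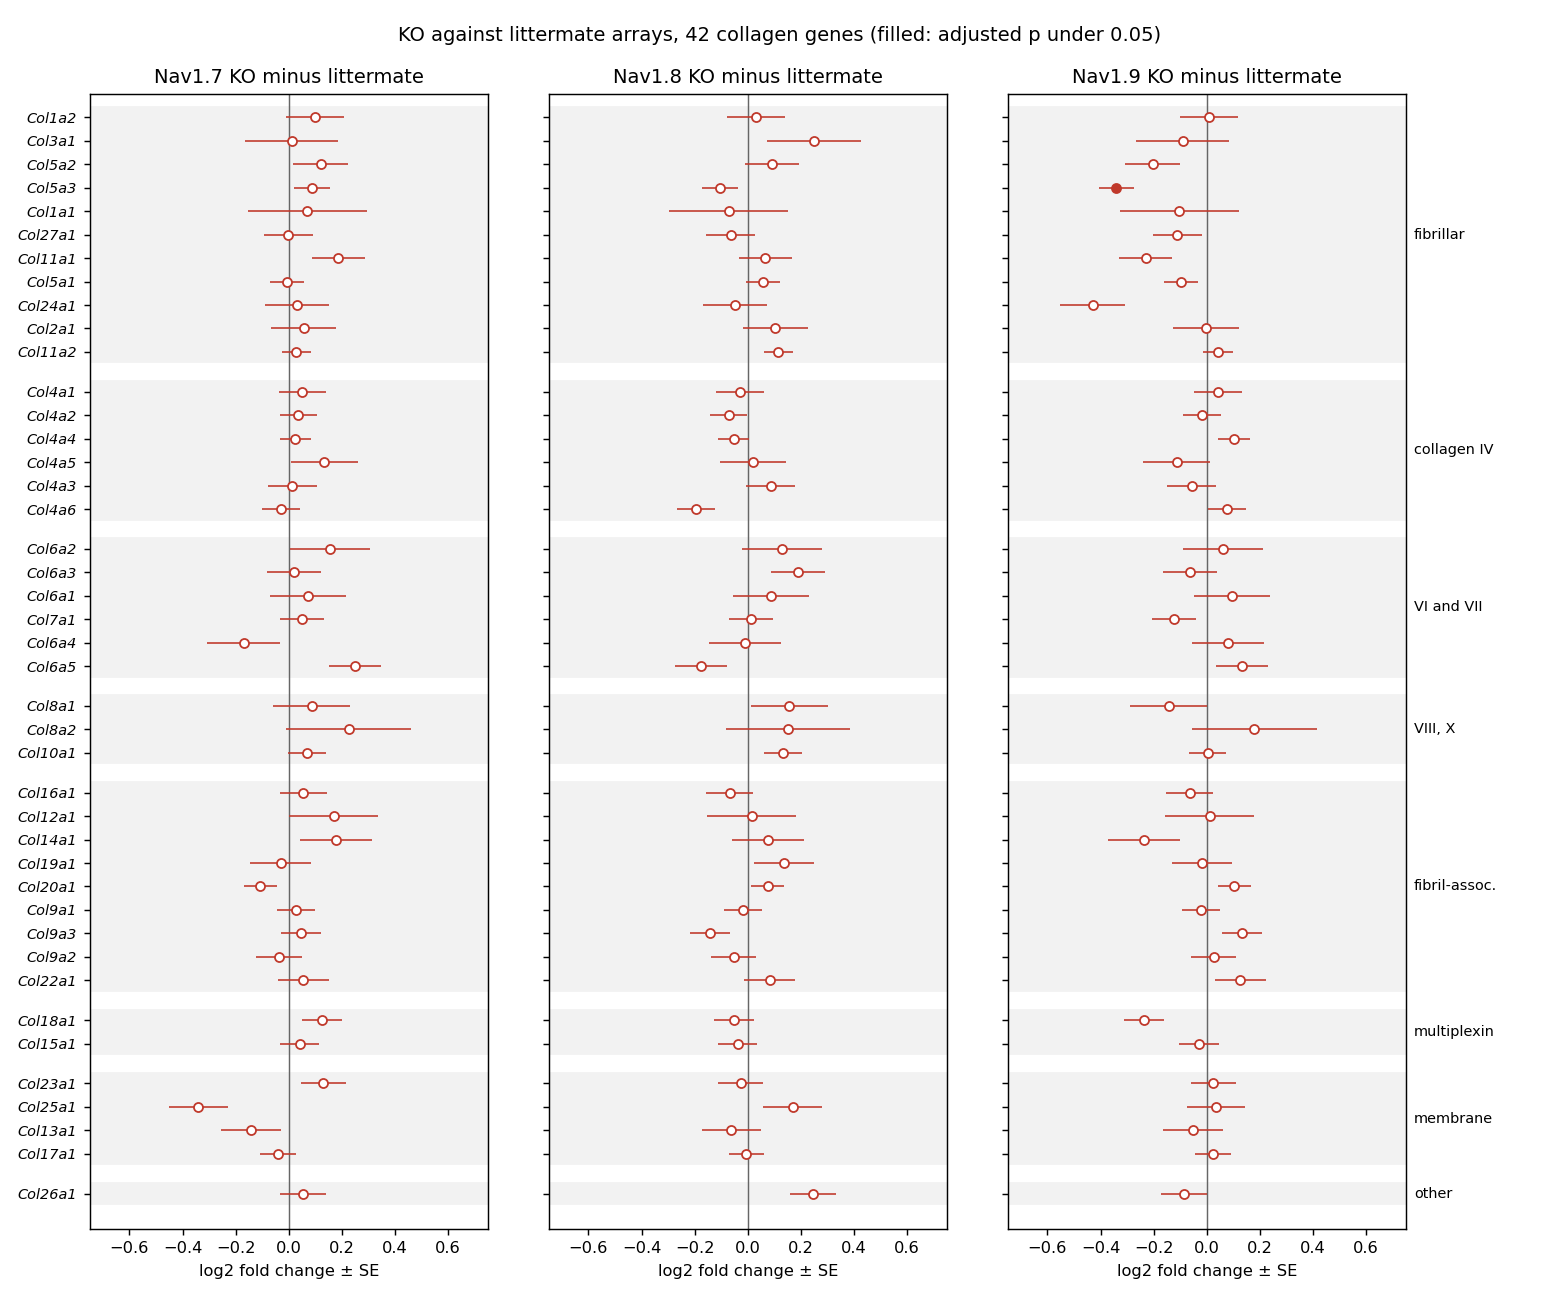
Log2 fold change with its SE (x axis) of each of the 42 collagen genes (rows, by class), KO minus littermate, for the Nav1.7, Nav1.8 and Nav1.9 lines. Filled points passed at an adjusted p under 0.05: *Col5a3* in the Nav1.9 line is the only one, at -0.34.

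The collagen that passed was *Col5a3*, the α3 chain of collagen V, a minor fibrillar collagen that takes part in the assembly of collagen I fibres. In Nav1.9 KO arrays it was 8.99, 8.80 and 9.11, and in Nav1.9 littermate arrays 9.37, 9.31 and 9.23. Every KO array lay below every littermate array. The difference was -0.34 on the log2 scale (SE 0.0674, adjusted p = 0.0358, limma), or 1.27-fold lower. In the Nav1.8 line the KO arrays stood at 9.12, 9.13 and 9.02 and the littermate arrays at 9.23, 9.23 and 9.13, again without overlap though touching at this rounding, but the difference of -0.11 did not pass (adjusted p = 0.716, limma). In the Nav1.7 line the KO arrays were 8.99, 8.89 and 8.85 and the littermate arrays 8.84, 8.79 and 8.83, a difference of 0.09 that did not pass (adjusted p = 0.577, limma). *Col5a3* lies on chromosome 9, as do *Scn10a* and *Scn11a*. So do *Col6a4*, *Col6a5*, *Col7a1* and *Col12a1*, none of which passed in a KO comparison. Whether this position has a part in the difference was not tested.

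The *Col5a3* difference was small and rested on few arrays. Its adjusted p was 0.0243 without Nav1.9 KO replicate 3 and lay between 0.0645 and 0.152 without any of the other 5 arrays of the line, with log2 fold changes between -0.41 and -0.26. With the 6 arrays of the line fitted alone it was 0.269. The gene has a second, dimmer probe set with a mean of 4.01, and on that one the difference was -0.02 (adjusted p = 0.960, limma over all probe sets).

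Whether the KO effect differed between lines was tested as a difference of effects. For Nav1.7 minus Nav1.8, 0 of 42 collagens passed (2.15% of all genes). For Nav1.7 minus Nav1.9, 1 passed (2.82% of all genes), and for Nav1.8 minus Nav1.9, 0 passed (0.0385%). The one was *Col5a3*, with an effect 0.43 higher in the Nav1.7 line than in the Nav1.9 line (SE 0.0954, adjusted p = 0.0215, limma). Its arrays are shared with the test in the Nav1.9 line.

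Among the other fibrillar collagens, *Col24a1* had the next smallest p in Nav1.9 KO DRG. Its KO arrays stood at 7.50, 6.98 and 7.33 and its littermate arrays at 7.92, 7.59 and 7.59, without overlap. The difference of -0.43 (SE 0.121) did not pass (adjusted p = 0.145, limma). *Col11a1*, a partner of the cartilage fibril, was 8.20 on average in Nav1.9 KO and 8.43 in littermate arrays (-0.23, adjusted p = 0.376), and 8.54 in Nav1.7 KO and 8.36 in littermate arrays (0.19, adjusted p = 0.388, limma). Its second probe set, of nearly the same brightness (mean 8.37), gave 0.40 in Nav1.7 KO and -0.41 in Nav1.9 KO, neither of which passed, and an effect difference of 0.81 that did (adjusted p = 0.0225, limma over all probe sets). In Nav1.9 KO DRG 9 of the 11 fibrillar collagens had a negative log2 fold change, with a class median of -0.10. In Nav1.7 and Nav1.8 KO DRG the class medians were 0.06 and 0.06.

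The chains of collagen I and III, the main fibrillar collagens of connective tissue, did not pass in any line. *Col1a1* was 8.43, 7.81 and 8.49 in Nav1.7 KO arrays and 8.29, 8.10 and 8.13 in Nav1.7 littermate arrays. The 95% interval of its difference of 0.07 ran from -0.41 to 0.55. For *Col1a2* the intervals of the difference were -0.13 to 0.33 in Nav1.7 KO, -0.20 to 0.27 for Nav1.8 and -0.23 to 0.24 for Nav1.9. For *Col3a1* they were -0.36 to 0.38, -0.12 to 0.62 and -0.46 to 0.28. The arrays of these genes overlapped in each line, and the intervals do not show that levels were equal.

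In the other classes no member passed in a KO comparison. *Col4a1* and *Col4a2*, the chains of the common basement membrane, differed by 0.05 and 0.04 in Nav1.7 KO, -0.03 and -0.07 in Nav1.8 KO and 0.04 and -0.02 in Nav1.9 KO. The largest difference of collagen IV was that of *Col4a6* in Nav1.8 KO, with 4.63, 4.46 and 4.60 in KO arrays and 4.66, 4.82 and 4.80 in littermate arrays (-0.20, adjusted p = 0.538, limma), and *Col4a5* had 0.13 in Nav1.7 KO. For collagen VI, *Col6a5* had 0.25 in Nav1.7 KO (adjusted p = 0.207, limma), at a low brightness, and *Col6a3* had 0.19 in Nav1.8 KO. *Col8a2*, a network collagen, had 0.23 in Nav1.7 KO with an SE of 0.235, and *Col8a1* had 0.16 in Nav1.8 KO. Among fibril-associated collagens *Col14a1* had -0.24 in Nav1.9 KO and *Col12a1* 0.17 in Nav1.7 KO. The other *Col14a1* probe sets (means 7.74 and 4.40) gave 0.03 and 0.23 in Nav1.9 KO (adjusted p = 0.964 and 0.222, limma over all probe sets). *Col20a1* had -0.11 in Nav1.7 KO and *Col9a3* -0.14 in Nav1.8 KO, and *Col11a2* of the fibrillar class had 0.12 in Nav1.8 KO.

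*Col18a1*, the multiplexin of vessel basement membranes whose end is endostatin, was 7.96, 7.78 and 7.87 in Nav1.9 KO arrays and 8.13, 7.99 and 8.18 in littermate arrays. The groups did not overlap, and the difference of -0.24 did not pass (adjusted p = 0.211, limma). *Col15a1*, the other multiplexin, differed by 0.04 in the Nav1.7 line, -0.04 in the Nav1.8 line and -0.03 in the Nav1.9 line. *Col25a1*, a membrane-spanning collagen of neurons needed for muscle innervation, had the smallest p in Nav1.7 KO DRG. It was 7.98, 7.53 and 7.65 in KO arrays against 8.10, 8.06 and 8.01 in littermate arrays, which do not overlap. The difference was -0.34 (SE 0.111, adjusted p = 0.111, limma). Without Nav1.7 KO replicate 1 it was -0.47 with an adjusted p of 0.0196, and without replicate 2, the *Xist*-low array, -0.25 with 0.335. A second *Col25a1* probe set (mean 7.19) had 0.03 (adjusted p = 0.935, limma over all probe sets). *Col13a1*, a collagen of the neuromuscular junction, had -0.14 in Nav1.7 KO. *Col26a1* had the smallest p in Nav1.8 KO DRG (0.0125 before adjustment), at 5.95, 5.72 and 5.79 in KO arrays and 5.50, 5.65 and 5.58 in littermate arrays. The difference was 0.25 (adjusted p = 0.535, limma).

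Few of the genes that make, modify and bind collagen passed, at shares near the 4.33% of all genes in Nav1.7 KO DRG. Of 30 measured enzymes of collagen biosynthesis and crosslinking, 1 rose and 1 fell in Nav1.7 KO DRG. *Adamts3*, a protease that removes the amino-terminal propeptide of procollagen, averaged 6.01 in Nav1.7 KO and 7.58 in littermate arrays (-1.58, SE 0.135, adjusted p = 2.89e-06, limma), and *Colgalt1*, which adds galactose to collagen hydroxylysine, 8.98 and 8.64 (0.34, adjusted p = 0.00619). Of 11 receptors *Lair1*, an inhibitory collagen receptor of leukocytes, rose by 0.45 (adjusted p = 0.0289), of 34 fibril partner proteins the proteoglycan *Vcan* by 0.37 (adjusted p = 0.00765), and of 19 laminins and other basement membrane proteins *Lamb1* by 0.38 (adjusted p = 0.0044, all limma). None of 18 turnover genes and 16 genes of TGF-beta signalling passed in Nav1.7 KO DRG. For the Nav1.8 and Nav1.9 lines 0 genes of these 6 lists passed. Beside these, 1 of 13 fibroblast markers fell in Nav1.7 KO DRG (*Cd34*, -0.48, adjusted p = 0.00253), 1 of 11 macrophage markers rose (*Adgre1*, 0.37, adjusted p = 0.0285), 1 of 9 satellite glia markers rose (*Fabp7*, 0.36, adjusted p = 0.0175, limma) and 0 of 9 meningeal and 10 endothelial markers passed. Their part in the values above was not tested.

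**Figure D2:**
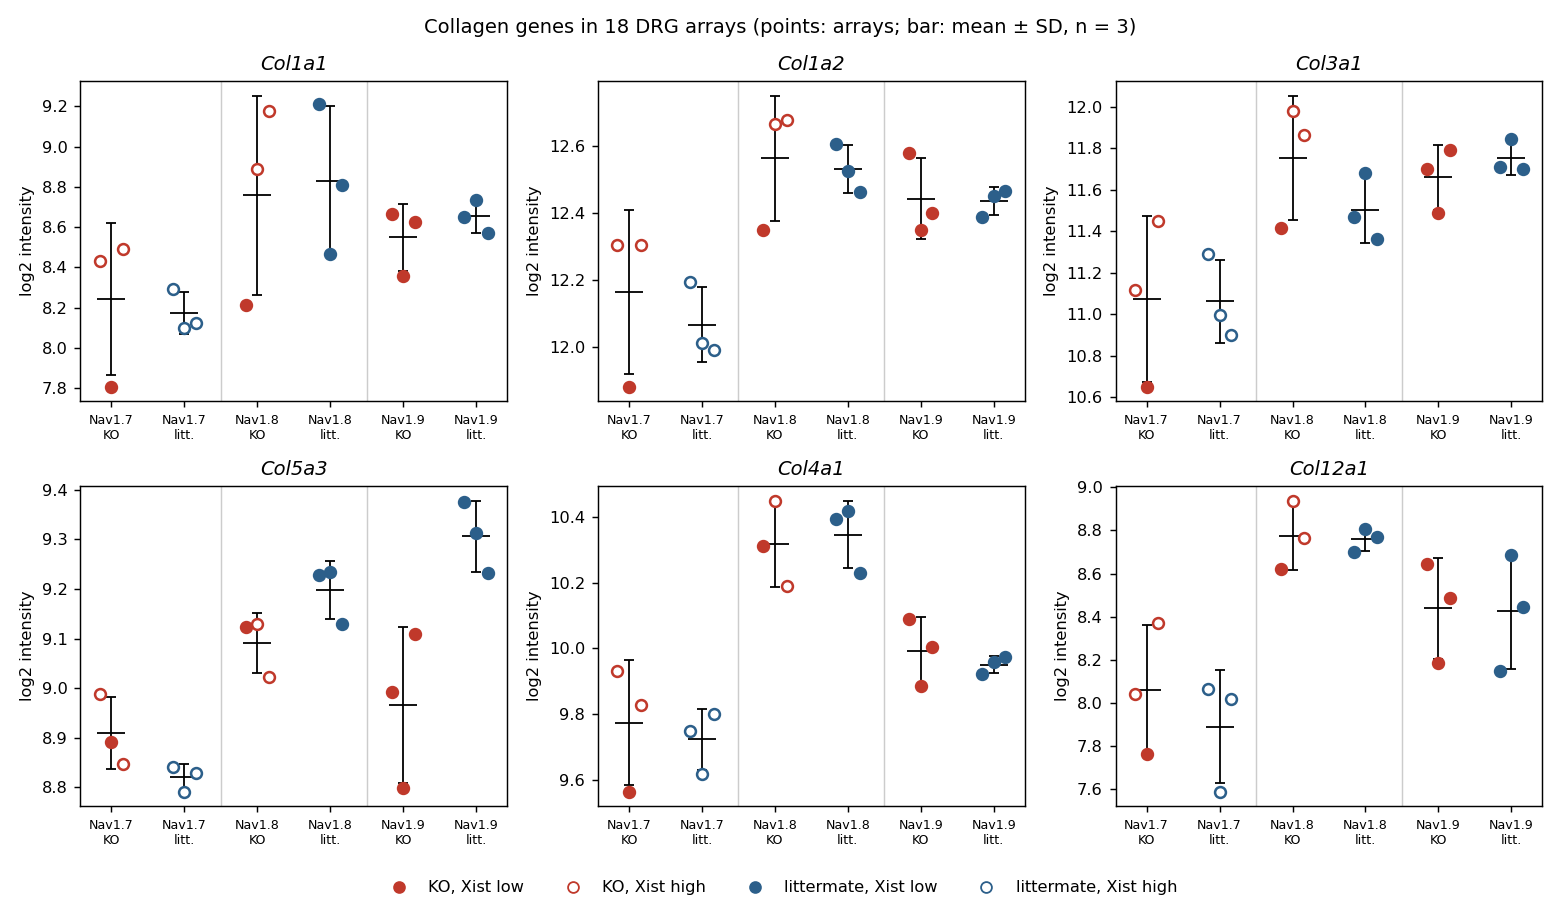
Log2 intensity (y axis) of 6 collagen genes in each of the 18 arrays, by group (x axis). Open points are *Xist*-high arrays, and bars give the mean ± SD (n = 3). The Nav1.7 arrays of *Col4a1* lie between 9.56 and 9.93, below every Nav1.8 array.

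The second question was how much collagen expression differed between the littermates of the lines. Here more members passed than in the KO comparisons, and so did more of all genes. At an adjusted p under 0.05 (limma), 15 of 42 collagens differed between Nav1.7 and Nav1.8 littermates, where 23.3% of all genes did. Of these 14 were lower in Nav1.7 littermates, where 15.4% of all genes were lower, and 1, *Col19a1*, was higher. The median difference was -0.19, against -0.04 over all genes, and 33 of the 42 were lower. Between Nav1.7 and Nav1.9 littermates 8 collagens differed, all lower in Nav1.7 littermates, beside 12.2% of all genes in either direction and 7.45% lower. Between Nav1.8 and Nav1.9 littermates 5 differed, 3 higher and 2 lower, beside 12.8% of all genes. These comparisons share arrays, so their values are given side by side. Single arrays moved the counts: 8 collagens passed between Nav1.7 and Nav1.8 littermates without Nav1.7 littermate 2, and 9 without Nav1.7 littermate 3 or without Nav1.8 littermate 1. Between Nav1.7 and Nav1.9 littermates 3 passed without Nav1.7 littermate 3, 4 without Nav1.7 littermate 2 or Nav1.9 littermate 3, and 5 without Nav1.9 littermate 1 or 2. Between Nav1.8 and Nav1.9 littermates 2 passed without Nav1.9 littermate 1, and 3 without Nav1.9 littermate 2 or without any 1 of the Nav1.8 littermates. The call held without any 1 of the 6 arrays for 8 of the 15 genes between Nav1.7 and Nav1.8 littermates (*Col1a2*, *Col4a1*, *Col4a2*, *Col5a3*, *Col7a1*, *Col12a1*, *Col15a1*, *Col19a1*) and for 3 of the 8 between Nav1.7 and Nav1.9 littermates (*Col5a2*, *Col5a3*, *Col7a1*). It was lost in 5 of 6 such fits for *Col1a1*, *Col8a2* and *Col9a3* in the first comparison and for *Col1a2*, *Col5a1* and *Col12a1* in the second. Between Nav1.8 and Nav1.9 littermates it held in all 6 fits for *Col4a1*. There it was lost in 4 of 6 for *Col4a4* and *Col7a1* and in 2 of 6 for *Col5a2* and *Col9a3*.

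All 11 fibrillar collagens averaged below the littermates of either other line in Nav1.7 littermates, and 5 passed in each comparison. The share of all genes that averaged below both was not counted. The smallest gap was that of *Col2a1*, the cartilage collagen, at 5.50 in Nav1.7 and 5.51 in Nav1.9 littermates. *Col1a2*, the α2 chain of collagen I, was 12.19, 12.01 and 11.99 in Nav1.7 littermates, against 12.61, 12.53 and 12.46 in Nav1.8 and 12.39, 12.45 and 12.47 in Nav1.9 littermates. The Nav1.7 arrays lay below those of both other lines, with differences of -0.47 (SE 0.110, adjusted p = 0.00658) and -0.37 (adjusted p = 0.0379, limma). *Col1a1* was 8.29, 8.10 and 8.13 in Nav1.7 littermates and 9.21, 8.47 and 8.81 in Nav1.8 littermates (-0.66, SE 0.225, adjusted p = 0.0453, and 0.0684 to 0.196 without any 1 of the 6 arrays other than Nav1.8 littermate 2), and 8.65, 8.74 and 8.57 in Nav1.9 littermates (-0.48, adjusted p = 0.187, limma). *Col3a1* was 11.29, 10.99 and 10.90 in Nav1.7 littermates against 11.71, 11.84 and 11.70 in Nav1.9 littermates (-0.69, SE 0.176, adjusted p = 0.0175, limma). *Col5a2*, which forms collagen V with *Col5a1*, was 9.43, 9.27 and 9.17 in Nav1.7 littermates and 10.10, 10.01 and 9.94 in Nav1.9 littermates (-0.73, SE 0.103, adjusted p = 0.000263, limma). *Col5a1* was lower by less, with -0.21 against Nav1.8 and -0.22 against Nav1.9 littermates. Its dimmer probe sets gave -0.17 and -0.22 (mean 7.82) and -0.02 and -0.01 (mean 6.14). None of these passed (adjusted p from 0.137 to 0.957, limma over all probe sets). *Col5a3* was -0.38 against Nav1.8 and -0.49 against Nav1.9 littermates.

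Among the basement membrane and vessel collagens the order of the lines varied by gene. *Col4a1* was 9.75, 9.62 and 9.80 in Nav1.7 littermates, 10.39, 10.42 and 10.23 in Nav1.8 littermates and 9.92, 9.96 and 9.97 in Nav1.9 littermates. Nav1.7 minus Nav1.8 was -0.62 (SE 0.0897, adjusted p = 0.000255), and Nav1.8 minus Nav1.9 was 0.40 (adjusted p = 0.0105, limma). A second, dimmer *Col4a1* probe set (mean 7.82) gave -0.16 (adjusted p = 0.0716) and 0.05 (adjusted p = 0.674, limma over all probe sets). The level in Nav1.9 littermates lay between them, and Nav1.7 minus Nav1.9 did not pass. *Col4a2* differed by -0.30 and *Col15a1* by -0.34 between Nav1.7 and Nav1.8 littermates, and *Col18a1* by -0.30 between Nav1.7 and Nav1.9 littermates. *Col4a4*, a chain of the specialised membranes of kidney and cochlea, was 0.19 higher in Nav1.8 than in Nav1.9 littermates.

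Outside these 2 classes the widest difference on the brightest probe set was that of *Col12a1*, a fibril-associated collagen of tendon and fascia. It was 8.06, 7.59 and 8.02 in Nav1.7 littermates against 8.70, 8.81 and 8.77 in Nav1.8 littermates, 1.83-fold lower (-0.87, SE 0.168, adjusted p = 0.00195, limma). The second brightest *Col12a1* probe set (mean 7.02) did not show this, with -0.02 (adjusted p = 0.867, limma over all probe sets). *Col8a2*, a network collagen of vessels and of the cornea, differed by -0.73, *Col6a1* and *Col6a3* of the microfibrils by -0.44 and -0.35, and *Col9a3* by -0.24 in the same comparison. The dimmer *Col9a3* probe sets (means 4.20 and 3.34) gave -0.03 and 0.01 (adjusted p = 0.866 and 0.956, limma over all probe sets). *Col7a1*, the anchoring fibril collagen, followed another order, with 6.27, 6.35 and 6.43 in Nav1.7, 6.63, 6.88 and 6.63 in Nav1.8 and 7.02, 7.07 and 6.93 in Nav1.9 littermates. All 3 differences passed, at -0.36, -0.66 and -0.30 for Nav1.7 minus Nav1.8, Nav1.7 minus Nav1.9 and Nav1.8 minus Nav1.9. That of Nav1.8 minus Nav1.9 was lost in 4 of 6 fits without 1 array (adjusted p up to 0.118, limma). *Col19a1*, known in neurons of the brain, was 7.33, 7.34 and 7.54 in Nav1.7 littermates and 6.95, 6.79 and 7.08 in Nav1.8 littermates, 0.46 higher (adjusted p = 0.00921, limma).

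**Figure D3:**
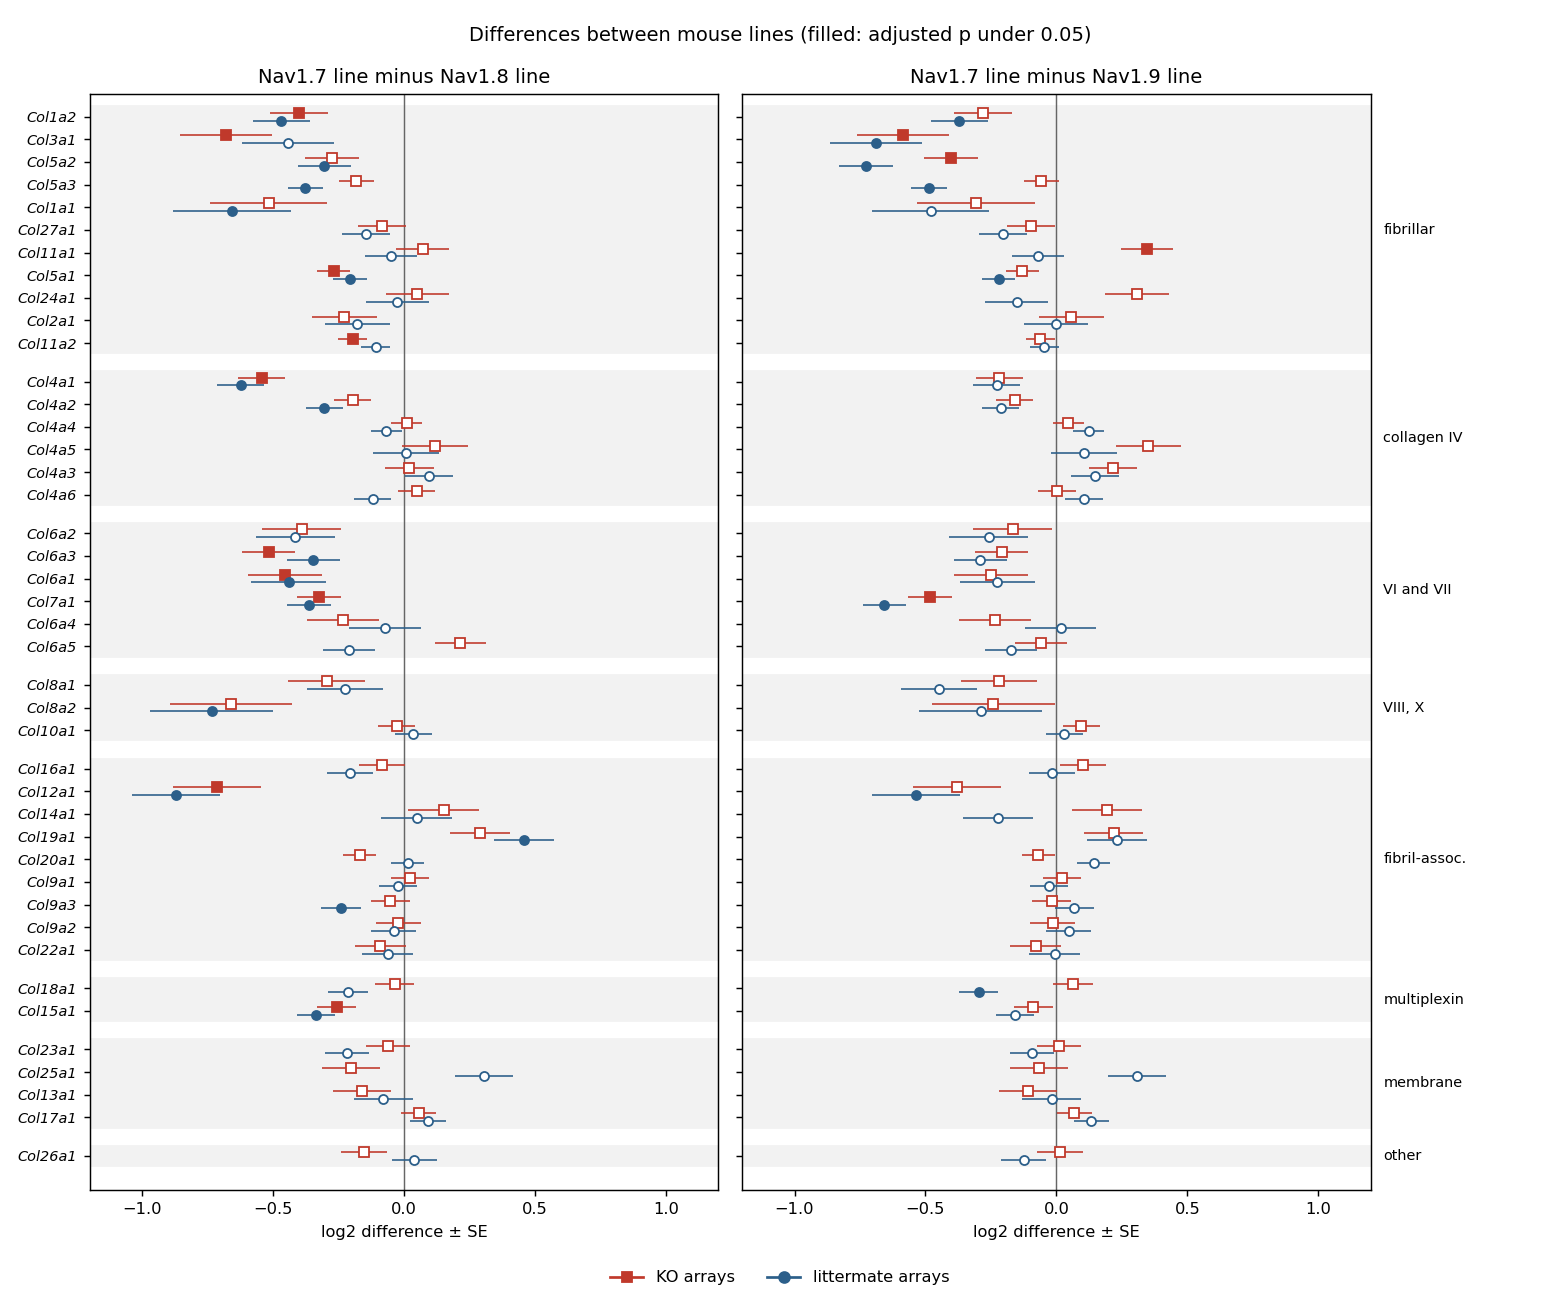
Log2 difference between lines with its SE (x axis) of the 42 collagen genes (rows, by class), Nav1.7 minus Nav1.8 on the left and Nav1.7 minus Nav1.9 on the right. Squares are KO arrays, circles littermate arrays, and filled symbols passed at an adjusted p under 0.05. Of 15 genes that passed between Nav1.7 and Nav1.8 littermates, 8 passed in the KO arrays, in the same direction. The overlap over all genes was not counted.

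The KO arrays of the same lines share no array with the littermates and were compared after the littermates had been seen. Between Nav1.7 KO and Nav1.8 KO arrays 10 collagens differed, all lower in Nav1.7 KO, beside 16.3% of all genes, and the median was -0.16. Of these, 8 were among the 15 that differed between the littermates, which is 80.0% of the KO list and 53.3% of the littermate list: *Col1a2*, *Col4a1*, *Col5a1*, *Col6a1*, *Col6a3*, *Col7a1*, *Col12a1* and *Col15a1*. All 15 had the same sign in both, and of the 8 that differed between Nav1.7 and Nav1.9 littermates 7 did, the exception being *Col18a1* (0.06 in KO arrays and -0.30 in littermate arrays). Overlap and shared sign were not counted over all genes, so they are not shown to be particular to the collagens. *Col4a1* was 9.93, 9.56 and 9.83 in Nav1.7 KO against 10.31, 10.45 and 10.19 in Nav1.8 KO arrays (-0.54, SE 0.0897, adjusted p = 0.000814, limma), without overlap. Between Nav1.7 KO and Nav1.9 KO arrays 4 differed, beside 11.0% of all genes, 3 of them lower (*Col3a1*, *Col5a2*, *Col7a1*) and also among the 8 of the littermates, while *Col11a1* was 0.35 higher in Nav1.7 KO. Between Nav1.8 KO and Nav1.9 KO arrays 0 passed, beside 2.83% of all genes. The Nav1.7 KO and Nav1.8 KO groups each hold 2 *Xist*-high and 1 *Xist*-low array, so this pair has the same mix. Between the littermates, where all 3 Nav1.7 arrays are *Xist*-high and all others low, line and *Xist* class cannot be told apart except through the KO arrays. With that class added to the fit 14, 11 and 7 collagens passed between Nav1.7 and Nav1.8, Nav1.7 and Nav1.9, and Nav1.8 and Nav1.9 littermates. The shares of all genes that passed in that fit were not counted, so these counts are not shown to be particular to the collagens.

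Partner genes and markers of several cell types also differed between the littermates, in both directions. Between Nav1.7 and Nav1.8 littermates 15 of 30 collagen biosynthesis and crosslinking enzymes were lower and 2 higher, among them *P4hb* (-0.24) of the prolyl hydroxylase, the collagen chaperone *Serpinh1* (-0.82) and the crosslinking oxidase *Lox* (-0.70). Of 34 fibril partner proteins 10 were lower, with *Tnc* at -0.57 and *Fbln1* at -0.88, and 1 was higher (*Postn*, 0.36). These counts stand beside the 15.4% of all genes that were lower and the 23.3% that differed in either direction. Lower were also 4 of 13 fibroblast markers, 4 of 9 meningeal markers (*Slc6a13*, also -1.16 against Nav1.9 littermates), 5 of 10 endothelial markers (*Cldn5*, -0.96) and 7 of 11 macrophage markers, while 1 endothelial marker was higher (*Emcn*, 0.40). Of 10 neuron markers 1 was lower and 3 higher, and of 9 Schwann cell markers 2 were lower and 1 higher. Of 9 satellite glia markers 2 were lower (*Fabp7*, *Lgi4*) and 1 higher (*Apoe*), and of 6 perineurial markers 2 were lower and 1 higher. The mean of the meningeal markers lay between 7.32 and 7.55 in Nav1.7, between 7.91 and 7.92 in Nav1.8 and between 7.80 and 7.95 in Nav1.9 littermates, and that of the endothelial markers between 6.97 and 7.12 in Nav1.7, between 7.29 and 7.39 in Nav1.8 and between 7.30 and 7.40 in Nav1.9 littermates. Skeletal muscle markers ranged over the 18 arrays from a mean of 6.20 to 9.78 with 0 of 10 passing between these littermates, with the highest mean in Nav1.7 KO 1. The part of these cell types in the collagen values was not tested.

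**Figure D4:**
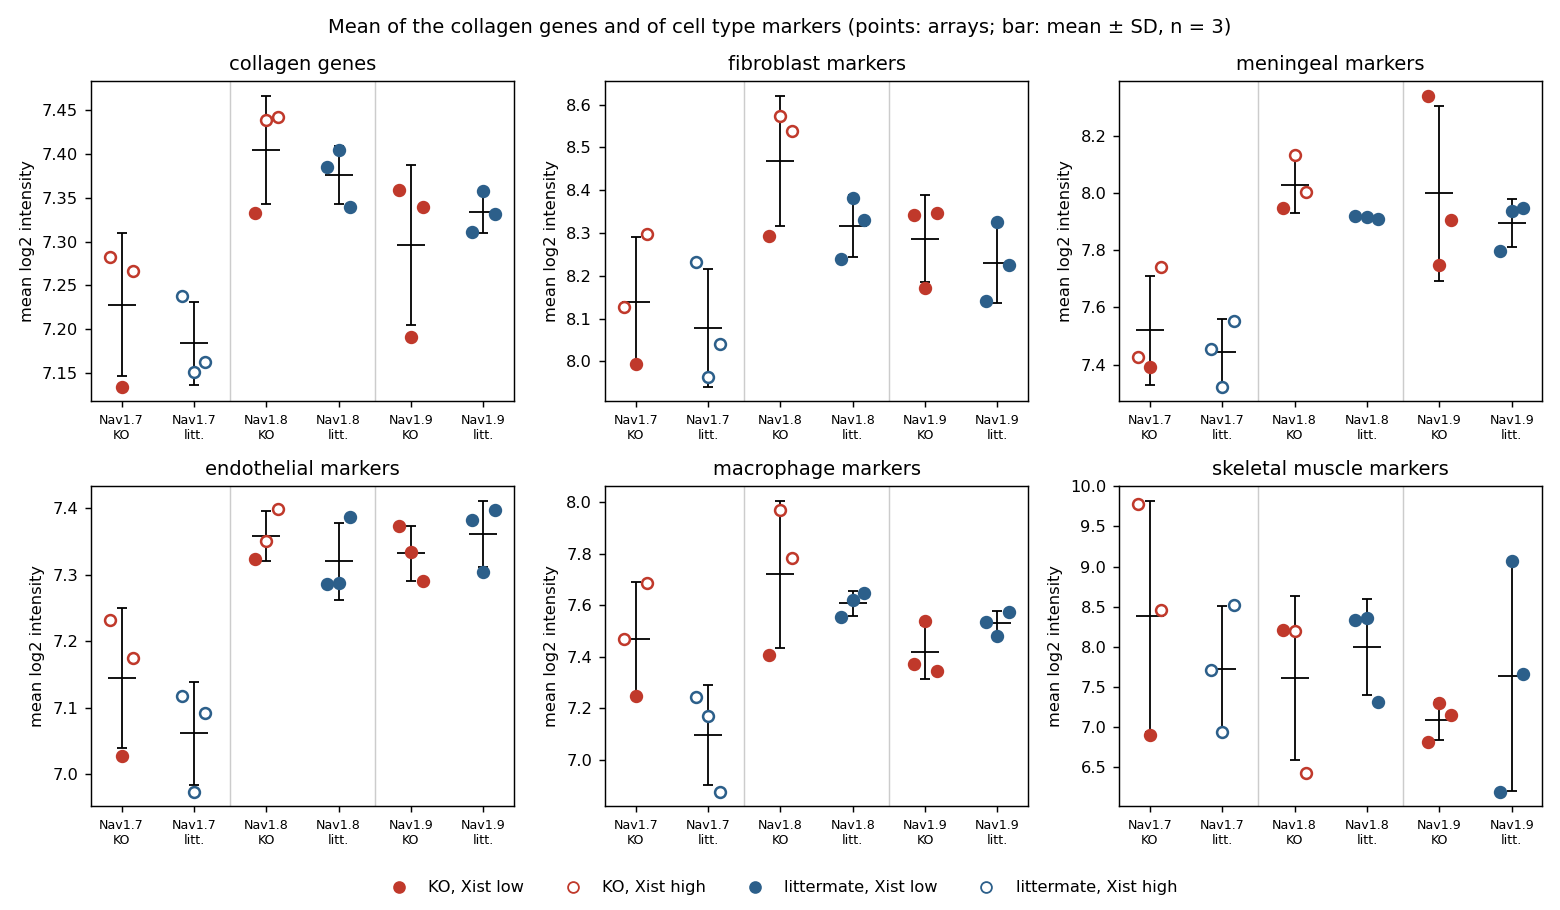
Mean log2 intensity (y axis) of the 42 collagen genes and of 5 lists of cell type markers in each array, by group (x axis). Open points are *Xist*-high arrays, and bars give the mean ± SD (n = 3). The collagen means of the Nav1.7 arrays lie between 7.13 and 7.28, below all Nav1.8 arrays (7.33 to 7.44) and overlapping the Nav1.9 KO arrays (7.19 to 7.36).

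The third question was how the members varied among arrays of 1 group. The largest spread within groups was that of *Col8a2* (SD 0.324), *Col1a1* (0.309), *Col3a1* (0.241) and *Col12a1* (0.230). The *Xist*-low arrays of the mixed groups, which add to that spread, stood apart in several of them. *Col1a1* was 7.81 in Nav1.7 KO 2 against 8.43 and 8.49 in the *Xist*-high arrays of its group, and 8.21 in Nav1.8 KO 1 against 8.89 and 9.18. *Col3a1* was 10.65 in Nav1.7 KO 2 against 11.12 and 11.45, and 11.41 in Nav1.8 KO 1 against 11.98 and 11.87. The *Xist*-low array was the lowest of its group for 22 of 42 collagens in Nav1.7 KO, where it was for 35.8% of all genes, and for 19 in Nav1.8 KO, where it was for 30.9%. It was the lowest in both for 12 of the 42 collagens, and the share of all genes for this was not counted.

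When the *Xist* class was added to the fit, no collagen passed for it (limma, 0 of 42, beside 0.0550% of all genes, with 11 collagens at an unadjusted p under 0.05 beside 9.01% of all genes). The *Xist*-high minus *Xist*-low value was 0.74 for *Col1a1*, 0.64 for *Col8a2*, 0.57 for *Col3a1*, 0.45 for *Col14a1* and 0.38 for *Col1a2*, whose adjusted p of 0.0805 was the smallest. The median over the collagens was 0.07, with 27 of 42 positive, beside -0.0040 and 47.9% over all genes. The term can be read only from 2 single *Xist*-low arrays, and on the same arrays the median over 11 macrophage markers was 0.40 and over 13 fibroblast markers 0.21, whose part was not tested.

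**Figure D5:**
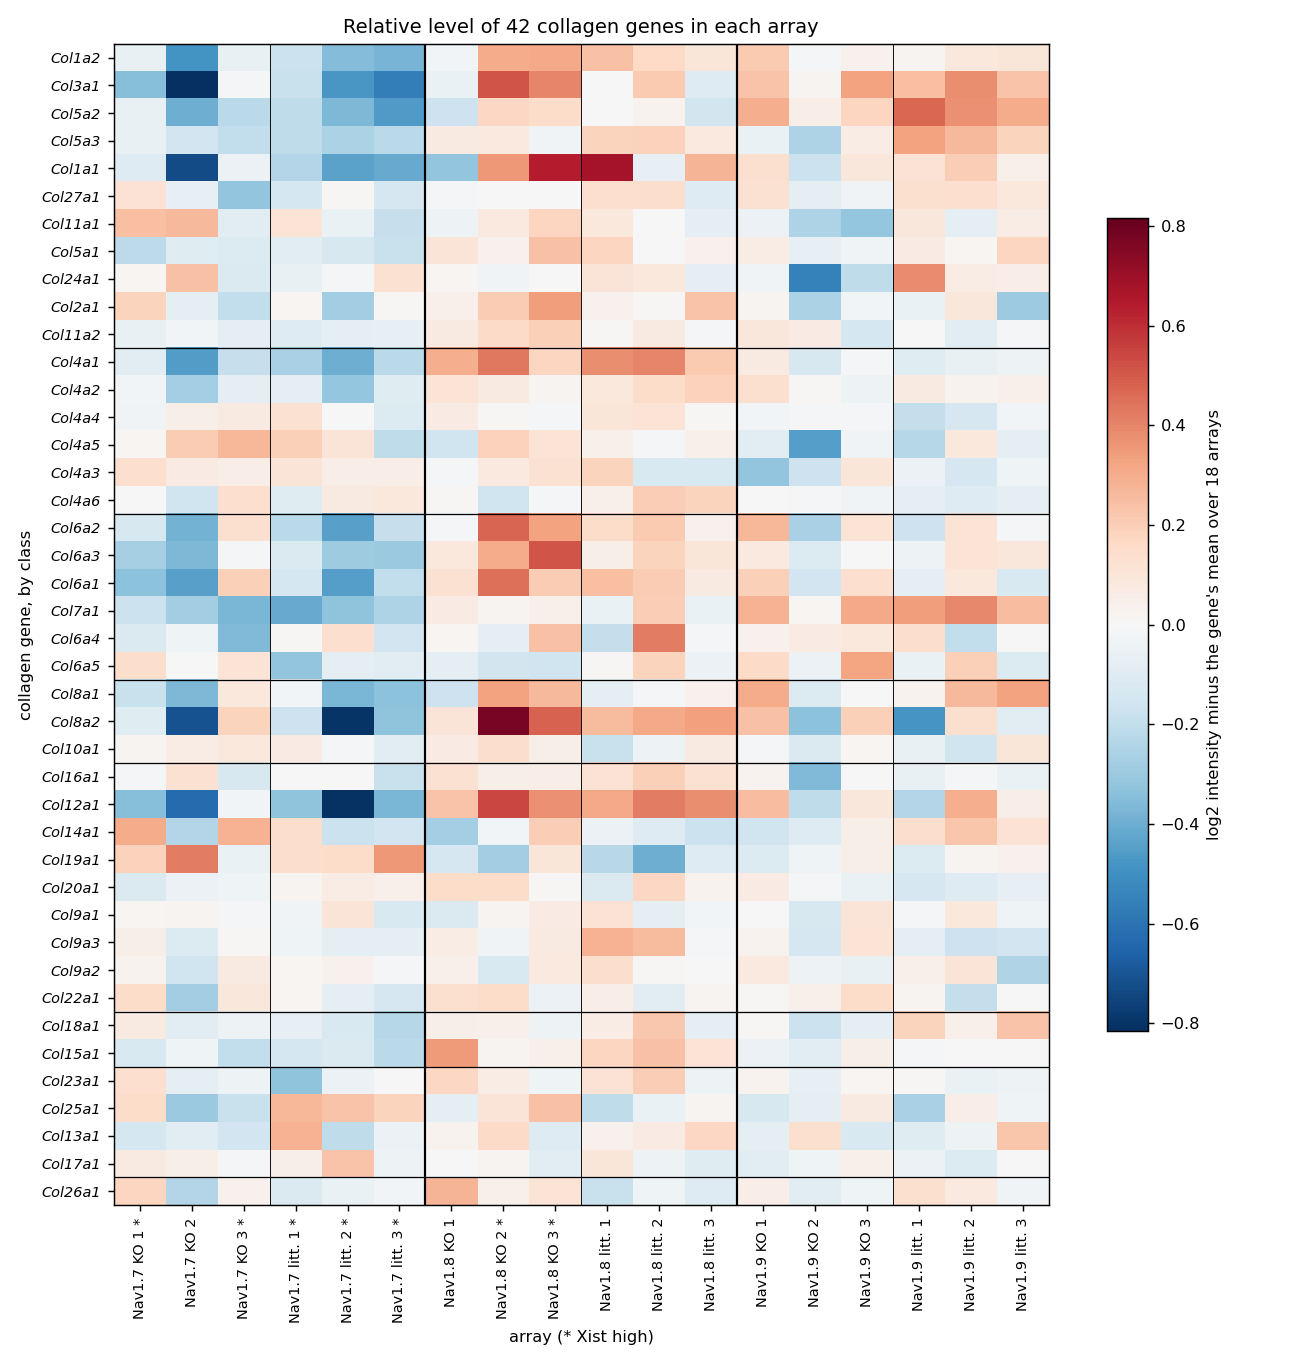
Log2 intensity of each collagen gene (rows, by class) minus its mean over the 18 arrays (columns, KO left of littermate in each line), as colour. Asterisks mark *Xist*-high arrays. Most fibrillar collagens are low in Nav1.7 littermates, where 5 of 11 passed against each other line.

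Deviations from the group mean were then compared between members over the 18 arrays. Of 861 pairs of collagens 557 had a positive Pearson's r, with a median of 0.12 and a range from -0.75 to 0.96, and the highest was that of *Col12a1* and *Col8a2*. All arrays of a pair share tissue and hybridisation, so these are descriptions. *Col1a2* and *Col3a1*, whose products lie in the same fibres, had an r of 0.84, and *Col6a1* and *Col6a2*, chains of 1 microfibril, 0.88. In a set of 8 relations of *Col1a1* with single genes, that with *Col1a2* was the one that passed (Pearson's r = 0.82, adjusted permutation p = 0.0310, Spearman's rho = 0.82, adjusted permutation p = 0.0266, raw 0.00387 and 0.00332, two-sided, shuffled within groups). Without Nav1.7 KO 2 and Nav1.8 KO 1, the 2 arrays farthest from the median, r was 0.67. These are also the *Xist*-low arrays of their groups, and the *Xist* class was not removed from the deviations. The r with *Col3a1* was 0.64 (adjusted permutation p = 0.186), 0.33 without those arrays, so it rests on them. The rho of *Col3a1* was 0.67 (adjusted permutation p = 0.103). With *Col15a1* r was -0.67, with *Col6a1* 0.52, with the endothelial *Pecam1* 0.46, with *Col5a1* 0.35, with *Col4a1* 0.31 and with decorin (*Dcn*) 0.20, all with an adjusted permutation p of 0.186 or above for r and of 0.114 or above for rho. Without the same 2 arrays r was -0.36 with *Col15a1*, 0.37 with *Col6a1* and 0.18 with *Pecam1*. It was then 0.53 with *Col5a1*, 0.10 with *Col4a1* and 0.093 with *Dcn*. The genes outside the collagens whose deviations were most alike to those of *Col1a1* were *Copb1* (r = 0.93), *Ssb* (0.89), *Grn* (0.88), *Myl12a* (0.85), *Tnc* (0.85), *Pdcd4* (0.85), *Hoxd12* (0.84) and *Twsg1* (0.83) over the 18 arrays.

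The stretches before the start of 4 genes are shown for the pair that varied together and for the genes of the KO and line differences, from RefSeq on GRCm38.p6, 150 bases each, with CCAAT (or ATTGG on the other strand) and TATAAA in capitals. *Col1a2* (chr6:4505468-4505617, plus strand) and *Col3a1* (chr1:45311388-45311537, plus strand) read:
Col1a2: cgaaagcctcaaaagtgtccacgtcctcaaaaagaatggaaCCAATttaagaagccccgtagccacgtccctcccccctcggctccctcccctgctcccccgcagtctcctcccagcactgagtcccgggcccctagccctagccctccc
Col3a1: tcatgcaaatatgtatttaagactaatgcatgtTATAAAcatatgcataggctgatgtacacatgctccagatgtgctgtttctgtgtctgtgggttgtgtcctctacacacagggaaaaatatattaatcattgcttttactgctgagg
*Col4a1* (chr8:11312827-11312976, minus strand), which lies head to head with *Col4a2*, and *Col5a3* (chr9:20815068-20815217, minus strand) read:
Col4a1: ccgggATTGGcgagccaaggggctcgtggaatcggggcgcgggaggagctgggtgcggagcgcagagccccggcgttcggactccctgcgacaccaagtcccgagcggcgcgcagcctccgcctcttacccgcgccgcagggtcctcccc
Col5a3: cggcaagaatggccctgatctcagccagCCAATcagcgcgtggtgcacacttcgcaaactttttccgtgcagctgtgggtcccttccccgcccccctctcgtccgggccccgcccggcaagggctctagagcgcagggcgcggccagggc

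In these windows the first base of the CCAAT run is 109 bases before the start in *Col1a2* and 122 bases before it in *Col5a3*, that of the ATTGG run 145 bases before it in *Col4a1*, and that of the TATAAA run 117 bases before it in *Col3a1*. A promoter window was available for 33 of the 42 collagen genes, in 36 windows of 250 bases before the start. CCAAT on either strand was in 13 of the 36, or 36.1%, beside 33.8% of 32851 windows of all genes. TATAAA on either strand was in 5, or 13.9%, beside 12.4%. The shares of the collagens and of all genes lay close together, and a match is no site of binding.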

How the data were processed

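DRG RNA was hybridised to 18 Affymetrix arrays. The authors deposited log2 intensities for every probe set, exported from Expression Console according to the submitters' processing notes. Their range showed the log2 scale. How probes were summarised and arrays normalized is not given in the sources used here, and this could move dim probe sets most. The number of arrays limits the precision. Groups were read from sample titles, since the source name is littermate control throughout.

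Of 45101 probe sets, 64 controls were left out. Symbols came from the platform annotation: 34945 probe sets have 1 symbol, 932 several and 9160 none listed. The brightest probe set per gene gave 18193 genes. limma 3.58.1 under R 4.3.3 fitted 6 group means on 18 arrays (12 residual and 3.44 prior degrees of freedom), with no covariate or dim filter, and Benjamini-Hochberg adjustment over all genes with a threshold of 0.05. An exact permutation test of 3 arrays against 3 cannot go below 0.1 and was not used for single genes. Correlations used 100000 shuffles within groups (numpy 2.4.6). The fit was tested on simulated data. Of 9 planned relations of *Col1a1*, 1 is not reported here.

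Named were collagens past the threshold in any contrast, the 4 with the smallest p per line, the 4 with the largest spread, the 2 per class with the largest fold change, up to 4 genes per pathway list and line past the threshold, and the 8 genes most like *Col1a1*. Marker genes, and list genes named for the line differences, were chosen after their values were seen. The members, the role and marker lists and the tests were chosen with earlier results of these data known. Alternatives were other normalizations, filters, probe set rules, variance models, a replicate block, the *Xist* class and leaving out arrays. Comparing the KO arrays between lines was chosen after seeing the data.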

Additional observations from a re-analysis of the deposited data

Results flagged for a closer look

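*Col5a3* had KO effects that differed between 2 lines by the test of the difference itself. The Nav1.7 effect was 0.09 and the Nav1.9 effect -0.34, a difference of 0.43 on the log2 scale (SE 0.0954, adjusted p = 0.0215, limma). All 3 Nav1.7 KO arrays lay above their littermate arrays and all 3 Nav1.9 KO arrays below theirs. The adjusted p was 0.0541 without Nav1.7 littermate 2, 0.0553 without Nav1.7 KO 1 and 0.0619 without Nav1.9 littermate 1. The dimmer second probe set gave a difference of 0.19 (adjusted p = 0.438, limma).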

How the results depend on the processing

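No named gene changed direction under the alternatives fitted gene by gene to the same groups, while medians near 0 changed sign in 4 comparisons. Dimmer probe sets were not each followed in these, and some had the other sign. Examples are *Col25a1* in Nav1.7 KO (0.03 against -0.34) and *Col4a6* in Nav1.8 KO (0.05 against -0.20). Another is *Col9a3* in Nav1.8 minus Nav1.9 littermates (-0.09 against 0.31). For the named genes 502 values stayed on their side of the threshold, 97 fell short of it and 2 newly passed it, both of *Col25a1*. In Nav1.9 KO DRG 0 collagens passed with each line fitted alone, with the mean of all probe sets, with every probe set tested, by analysis of variance after adjustment, and at an unadjusted p under 0.01 with a fold above 1.5. With a replicate block 1 collagen passed for the Nav1.7 line, 0 for the Nav1.8 and 0 for the Nav1.9 line. Same-numbered arrays did not deviate together in every pair (r from -0.19 to 0.27), so the numbers were not taken as pairing. The Nav1.7 minus Nav1.9 effect count was 2 with every probe set (*Col5a3*, *Col11a1*) and with the *Xist* class in the model. Between Nav1.8 and Nav1.9 littermates 3 passed without dim genes, and 0 in the KO arrays. Between Nav1.7 and Nav1.9, 5 passed with the mean of all probe sets and 4 in the KO arrays. The Nav1.7 minus Nav1.8 littermate median was -0.30 without dim genes and -0.14 with every probe set. The Nav1.7 minus Nav1.9 median was -0.23 without dim genes, -0.082 with the mean of probe sets, -0.072 with every probe set and -0.064 in KO arrays. The Nav1.8 KO median was -0.048 with the *Xist* class fitted, -0.039 with 1 *Xist* class per line, and the Nav1.7 minus Nav1.8 effect median was 0.11 with the *Xist* class. Leaving out 1 array gave 0 to 1 collagens for Nav1.7 KO, for Nav1.9 KO and for Nav1.7 minus Nav1.8 effects, 0 to 2 for Nav1.7 minus Nav1.9 effects, and 8 to 15, 3 to 7 and 2 to 5 for the Nav1.7 minus Nav1.8, Nav1.7 minus Nav1.9 and Nav1.8 minus Nav1.9 littermates. Medians then ran from -0.040 to 0.021 for Nav1.9 KO, from -0.021 to 0.076 for Nav1.7 minus Nav1.8 effects and from -0.0096 to 0.13 for Nav1.8 minus Nav1.9 effects. The cause of these shifts was not tested. No detection calls were at hand, so dim collagens have no known background.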
